A study of Mus musculus with 25 samples.

Results

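The TGF-beta and BMP pathway was described here by 49 named genes in 5 mouse melanoma lines. The genes were chosen by symbol and by role: ligands, receptors, SMAD proteins, secreted antagonists, latent TGF-beta binding proteins and target genes. All 49 were found among the 55385 genes of the files, and 45 of them were among the 15247 genes with enough reads for a test. The others were Bmp5, Gdf6, Bmpr1b and Chrd. RNA-seq of cultured cells was available from 25 libraries, 5 biological replicates of each line, with 24199083 to 25843286 estimated counts per library. WT31, B16F10 luc2 and RET form liver metastases with high or intermediate efficiency in the study (HIM-melanoma), whereas D4M and HCmel12 do so with low efficiency (LM-melanoma), and the comparison of both groups was the question of the RNA-seq.

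WT31 came from Tyr::NrasQ61K/°; INK4a-/- mice. B16F10 luc2 was a purchased line that carries luciferase. RET came from mice transgenic for MT/RET, in which a metallothionein promoter drives the oncogene. D4M came from mice that carry, among their alleles, BrafCA and Tyr::CreER, in which the tyrosinase promoter drives the inducible Cre. HCmel12 was made from a primary melanoma of an HGF-CDK4(R24C) mouse. All lines were untreated, were harvested at 50% confluency and are single lines, so that replicates measure the spread between cultures of a line and not between tumours or animals. WT31, RET and, by the study's methods, B16F10 luc2 grew in RPMI with 10% fetal calf serum, HCmel12 in the same with further supplements, whereas D4M grew in Advanced DMEM/F-12 with 5% serum. In comparisons with D4M or HCmel12, the line and its medium cannot be told apart.

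The lines were checked against 7 melanocyte markers. Sox10, a transcription factor of the melanocyte lineage, stood at 897, 613, 547 and 826 CPM (counts scaled to the library's tested genes) in WT31, B16F10 luc2, RET and HCmel12 and at 0.55 ± 0.87 (SD, n = 5) in D4M. All 7 markers were at 6.38 CPM or less on average in D4M, and each of them was higher in every other line. D4M replicate 1 stood apart with 27 CPM of Tyrp1 and 10.7 of Dct, against at most 2.85 and 1.19 in the other D4M libraries, and HCmel12 replicate 4 had 30.1 CPM of Tyr against at most 9.13 in the others. Without these 2 libraries, a choice made after their values were seen, 5 of the 6 genes described below as commonly regulated were called, and Acvr2a was not. D4M carried more Pdgfra (59.5 CPM) and Col1a2 (354) than any other line, while the fibroblast markers Dcn (0.33) and Lum (0) were near or at 0. Leukocyte, endothelial and epithelial markers were at most 0.79 CPM on average in D4M, except Cd68 with 8.01 CPM, and Kdr reached 31 CPM in HCmel12. Hgf, the gene of the HCmel12 transgene, stood at 94.8 CPM in HCmel12 and at most 2.63 on average elsewhere. Since bulk RNA was measured, fewer cells that express a gene and less RNA per cell cannot be told apart. The part of these differences in the results for D4M was not tested.

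TGF-beta family ligands are secreted dimers that bring a type II and a type I receptor serine kinase together. TGF-beta and activins mainly lead to phosphorylation of SMAD2 and SMAD3, whereas BMPs lead to phosphorylation of SMAD1, SMAD5 and SMAD9 (also called SMAD8), and both groups act with SMAD4 in the nucleus. Id1, Id2, Id3, Smad6 and Smad7 are well known early targets, of which SMAD6 and SMAD7 act back on the receptors as inhibitors, and the family as a whole regulates growth, differentiation and mesenchymal traits of melanocytic cells.

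Smad6, Smad9, Id2 and Id3 moved together between libraries of one line (described below with their values), and their promoters are shown for this reason. RefSeq start sites (GRCm38.p6) were available for 33 of the 49 genes, and each sequence runs from 250 bases before to 25 bases after the start. The following 3 motifs were searched on both strands. They were the palindromic SMAD binding element GTCTAGAC, the GC-rich element GGCGCC, which equals its own reverse complement, and the short element CAGAC, which was not found in the Smad6 sequence and so overlaps no GTCTAGAC match here. Capitals mark the matches.
Smad6, chr9:64022035-64022309, minus strand: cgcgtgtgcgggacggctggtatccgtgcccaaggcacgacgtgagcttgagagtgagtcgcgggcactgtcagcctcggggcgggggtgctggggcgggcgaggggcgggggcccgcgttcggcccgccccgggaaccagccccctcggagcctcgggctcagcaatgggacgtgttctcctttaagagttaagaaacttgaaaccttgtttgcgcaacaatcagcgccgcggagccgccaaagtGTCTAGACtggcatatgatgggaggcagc
Smad9, chr3:54755332-54755606, plus strand: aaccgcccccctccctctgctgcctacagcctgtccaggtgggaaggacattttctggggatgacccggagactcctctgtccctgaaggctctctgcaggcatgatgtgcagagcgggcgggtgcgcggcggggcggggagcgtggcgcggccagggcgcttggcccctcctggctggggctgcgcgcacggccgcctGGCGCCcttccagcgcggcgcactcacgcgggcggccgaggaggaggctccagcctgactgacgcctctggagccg
Id2, chr12:25096068-25096342, minus strand: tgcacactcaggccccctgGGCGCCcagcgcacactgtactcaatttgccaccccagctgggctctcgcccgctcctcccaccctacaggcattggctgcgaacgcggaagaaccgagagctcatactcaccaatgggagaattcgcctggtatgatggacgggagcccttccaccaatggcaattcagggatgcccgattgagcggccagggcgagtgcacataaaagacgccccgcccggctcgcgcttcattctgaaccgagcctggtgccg
Id3, chr4:136143572-136143846, plus strand: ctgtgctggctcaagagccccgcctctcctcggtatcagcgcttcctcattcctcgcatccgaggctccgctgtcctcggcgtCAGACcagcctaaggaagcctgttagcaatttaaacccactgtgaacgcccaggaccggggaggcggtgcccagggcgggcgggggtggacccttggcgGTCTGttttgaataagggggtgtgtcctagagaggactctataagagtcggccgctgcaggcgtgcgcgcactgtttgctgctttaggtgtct
The Smad6 promoter held GTCTAGAC across its start site, a motif found in 0.213% of 32851 promoter windows of 300 bases, and no other of the 33 genes had it. Smad9 and Id2 held GGCGCC once each, a motif found at 1 or more positions in 11.9% of all windows. Id3 held CAGAC at 2 positions, a motif found at 1 or more positions in 49.6% of all windows. Of the 33 genes, 11 held GGCGCC and 17 held CAGAC in a window of 300 bases, so neither motif is particular to the genes shown. These counts are per gene, and some genes have several windows. The matches are descriptions of the sequence, and binding was not measured.

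**Figure D1:**
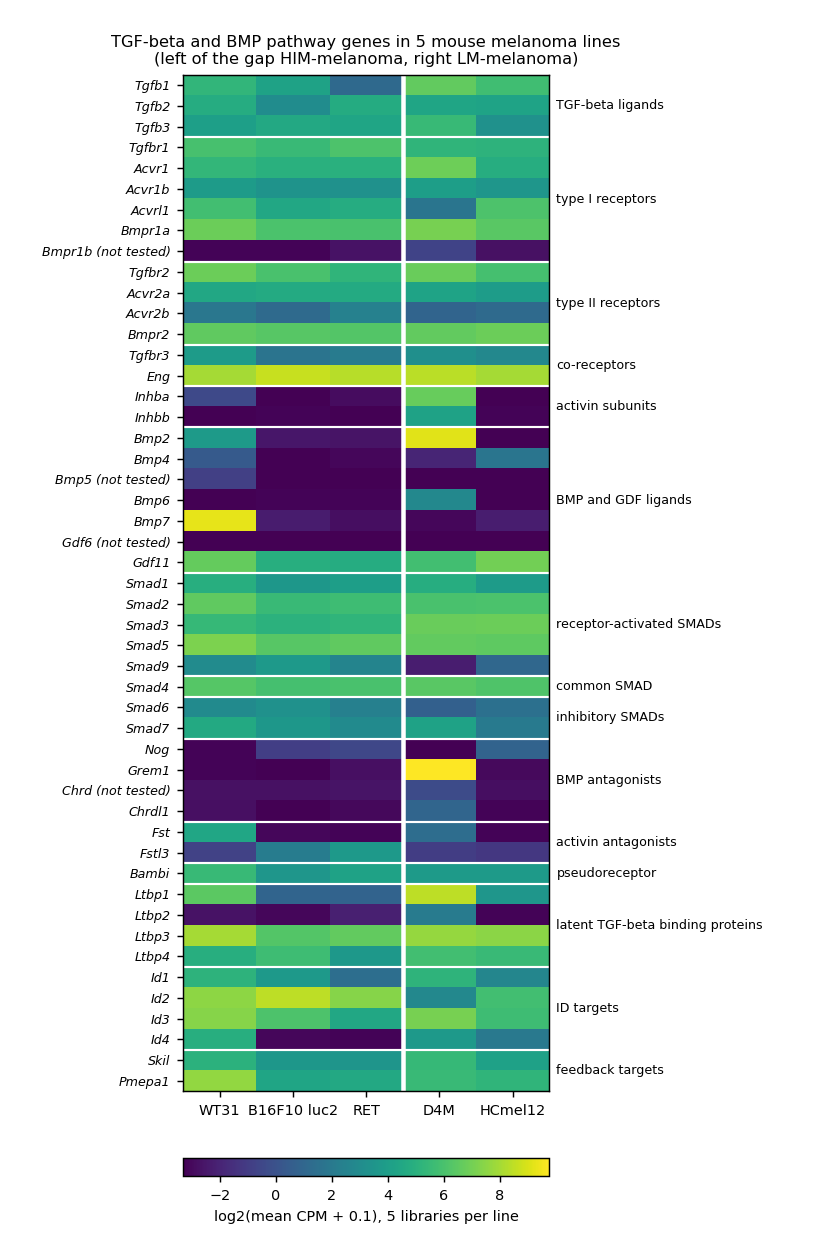
Mean level of each of the 49 genes in each line, as log2(mean CPM + 0.1) of 5 libraries, with genes in rows grouped by role and lines in columns. The largest contrasts between lines are those of single ligands and antagonists, such as Bmp7 with 607 CPM in WT31 and Grem1 with 863 CPM in D4M. Id4 also has a large contrast. Most receptors and SMADs differ less, except Smad9 (126-fold between the highest and lowest line mean) and Acvrl1 (20.7-fold). The ligands Tgfb2, Tgfb3 and Gdf11 span at most 4.56-fold.

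Among the TGF-beta ligands, Tgfb1 (chr7:25687002-25705077 in GRCm38) was the one that separated HIM-melanoma from LM-melanoma. Its level was 89.2, 120, 121, 75.1 and 85.2 CPM in the D4M libraries and 34.5, 55.7, 69.3, 46 and 60.3 in HCmel12. It was 47.7, 45.2, 36.3, 35.3 and 33.2 CPM in WT31, 17.9, 17, 16.5, 22.8 and 17 in B16F10 luc2, and 1.78, 2.79, 1.94, 1.8 and 2.2 in RET. RET lay below every other line without overlap, and its difference from B16F10 luc2, the next line, was -3.11 ± 0.34 on the log2 scale (SE, limma adjusted p = 2.9e-08). The smallest of the 6 differences between HIM and LM lines was that of WT31 from HCmel12, where the libraries overlapped (log2 fold change -0.40 ± 0.15, limma adjusted p = 0.023). This call was lost in several other settings, with adjusted p = 0.34 for log2(TPM + 1).

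Tgfb2 and Tgfb3 followed other orders. Tgfb2 was similar in WT31 (27.4 ± 4.5 CPM, SD, n = 5 here and below) and RET (26 ± 2.3), which did not differ beyond their spread, and was lowest in B16F10 luc2 (8.05 ± 1.1). D4M (20.3) and HCmel12 (18.8) lay between them and did not differ from each other beyond their spread. Tgfb3 was highest in D4M (44.7 ± 7.7) and lowest in HCmel12 (9.82 ± 1.1), so that the LM lines stood at opposite ends.

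Activin subunits were a feature of D4M. Inhba, which encodes the subunit of activin A (chr13:16011851-16031621), had 90.5, 106, 103, 104 and 123 CPM in D4M and between 0.47 and 0.83 CPM in WT31 (log2 fold change 7.35 ± 0.21, limma adjusted p = 8.7e-21). No Inhba count was found in any library of B16F10 luc2 or HCmel12, so that D4M was at least 4350-fold higher than B16F10 luc2 against a floor of 3 counts over the 5 libraries of a line. RET had 5 rounded counts in all. Inhbb, the subunit of activin B, reached 14.7 to 23.6 CPM in the D4M libraries, while the 5 libraries of another line together never held more than 1 count. D4M was at least 804-fold higher in Inhbb than WT31, where no count was found.

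Of the BMP ligands, Bmp2 was a gene of D4M and Bmp7 a gene of WT31. Bmp2 (chr2:133552159-133562885) had 576, 609, 635, 527 and 480 CPM in D4M and 18.9, 12.7, 12, 12.2 and 12.3 in WT31 (log2 fold change 5.39 ± 0.10, limma adjusted p = 1e-23). B16F10 luc2 and RET held 9 and 8 counts of Bmp2 over all libraries and HCmel12 none, which put D4M at least 23300-fold above HCmel12. Bmp7 (chr2:172868012-172940321) had 582, 668, 619, 599 and 565 CPM in WT31, while no library of another line exceeded 0.31 CPM. The fold of WT31 over HCmel12, where 13 counts were found, was 5780 (95% Poisson interval 3380 to 10900, counting error only), and every library of WT31 lay above every library of the other lines.

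Bmp6 was found in D4M with 8.46, 7.82, 6.41, 4.18 and 7.37 CPM and in no other line with more than 1 count. Bmp4 was low in all lines and highest in HCmel12 (3.30 ± 0.88 CPM), followed by WT31 (1.2 ± 0.41), with no count in B16F10 luc2. Gdf11 was the one BMP and GDF ligand found in all lines at more than 20 CPM. It was highest in HCmel12 (125 ± 9.9) and WT31 (100 ± 11) and lowest in RET (27.3 ± 4.2) and B16F10 luc2 (29.0 ± 2.9). Bmp5 was not tested and was found in WT31 (0.45 CPM) and in no other line, where 0 counts over a line allow up to 3 counts. For 46.2% of its 31-base sequences, Bmp5 shares the sequence with Gm26903, so that its value is uncertain. Gdf6 had no count in any library.

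**Figure D2:**
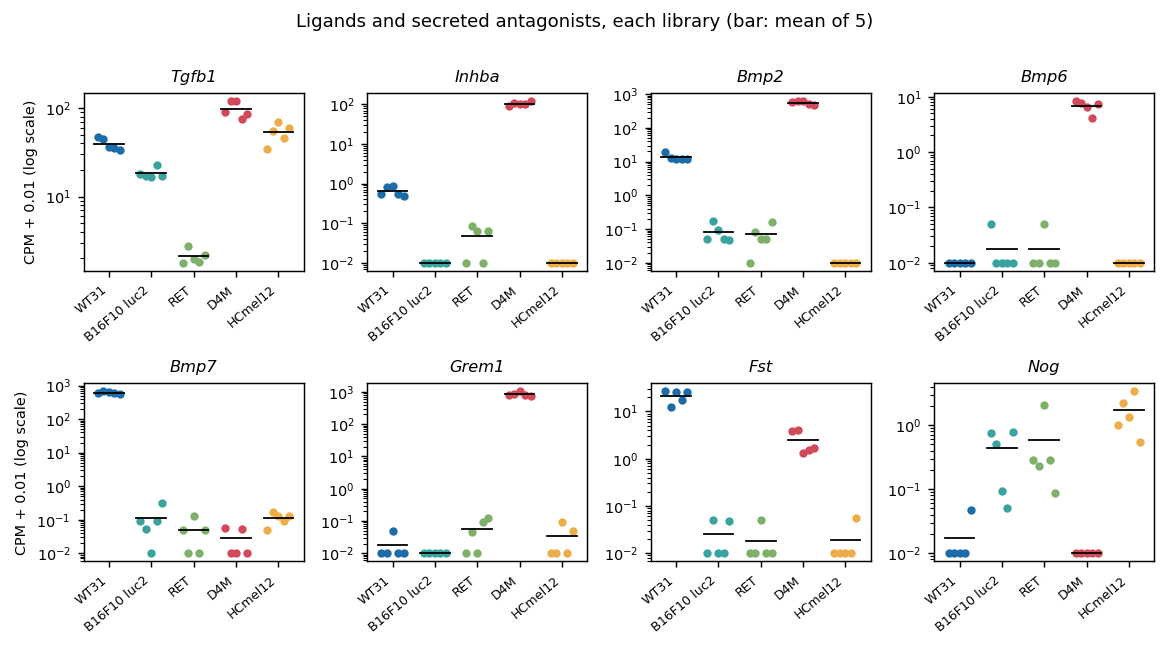
CPM of 4 BMP and activin ligands, Tgfb1 and 3 antagonists in each of the 25 libraries, on a log axis after adding 0.01 so that libraries without counts can be drawn. Bars are means of 5 libraries. Inhba, Bmp2, Bmp6 and Grem1 are high in D4M, and Bmp7 and Fst are high in WT31.

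Several secreted antagonists were found mainly in one line. Grem1, which encodes the BMP antagonist gremlin 1 (chr2:113746164-113758646), had 795, 884, 1040, 827 and 771 CPM in D4M, and no library of another line exceeded 0.12 CPM. No count was found in B16F10 luc2, so that D4M was at least 35600-fold higher. Bmp2 and Grem1 were thus both highest in the D4M libraries. Per transcript length, Grem1 (284.5 ± 34 TPM, SD, n = 4 libraries with TPM) and Bmp2 (214 ± 24 TPM) were the 2 most abundant of the 49 genes in D4M. Chrdl1, a chordin-like BMP antagonist, was also found mainly in D4M with 0.80 to 3.2 CPM, 39.9-fold above WT31 (95% Poisson interval 18.3 to 109). Chrd was not tested and reached 0.70 CPM in D4M.

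Noggin (Nog) showed another distribution. It had 1, 2.23, 1.34, 3.35 and 0.53 CPM in HCmel12, 0.28, 0.22, 2.05, 0.28 and 0.08 in RET and 0.75, 0.50, 0.08, 0.04 and 0.77 in B16F10 luc2, with no count in D4M and 1 count in WT31. HCmel12 was higher than RET (log2 fold change 2.09 ± 0.61, limma adjusted p = 0.0041), although RET replicate 3 lay within the range of HCmel12, and with DESeq2 the adjusted p was 0.076. Follistatin (Fst), which binds activins, had 26.6, 12.3, 26, 17.5 and 25.3 CPM in WT31 and 3.77, 3.96, 1.34, 1.55 and 1.7 in D4M (log2 fold change 3.22 ± 0.29, limma adjusted p = 2e-10). The other lines held at most 2 counts of Fst each. Its relative Fstl3 was instead highest in RET (13.2 ± 0.87 CPM) and B16F10 luc2 (4.46 ± 0.39), with less than 1 CPM in the remaining lines. Of the 31-base sequences of Fstl3, 46.7% also occur in transcripts of Prss57, which makes its values uncertain. Bambi, a pseudoreceptor without kinase, was highest in WT31 (45.0 ± 4.6 CPM) and lay between 11.6 and 18.2 in the other lines.

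The type II receptors were found in all lines. Tgfbr2, which binds TGF-beta, was similar in WT31 (111 ± 11 CPM) and D4M (108 ± 4.8), which did not differ beyond their spread (limma adjusted p = 0.64). Both were higher than B16F10 luc2 (63.5 ± 5.7) and HCmel12 (58.6 ± 5.2), and RET was lowest (37.0 ± 1.6). RET thus had the lowest level of both Tgfb1 and Tgfbr2. Acvr2a lay between 15 CPM in HCmel12 and 25.5 in RET and B16F10 luc2, Acvr2b between 1.73 in D4M and 5.27 in RET, and Bmpr2 between 76.1 in RET and 114 in HCmel12. Acvr2a was higher in all HIM lines than in both LM lines, with WT31 against D4M as the smallest difference (log2 fold change 0.25 ± 0.09, limma adjusted p = 0.010), which was lost without D4M replicate 1 (adjusted p = 0.056) or D4M replicate 3 (0.051).

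Of the tested type I receptors, Acvrl1 had the widest range of line means. It encodes ALK1, a receptor for BMP9 and BMP10 best known from endothelium, and had 2.71, 3.38, 4.63, 3.24 and 2.64 CPM in D4M, below every library of the other lines. B16F10 luc2 was next with 22.5 ± 2.8 (log2 fold change of D4M -2.77 ± 0.23, limma adjusted p = 2.6e-11), and HCmel12 was highest with 68.6 ± 10. Acvr1 (ALK2) was the opposite, with 115 ± 7.6 CPM in D4M and 28.3 to 40.9 in the other lines. Bmpr1a (ALK3) was also highest in D4M (132 ± 10). Acvr1b (ALK4), the activin type I receptor, lay between 9.84 and 16.3 CPM without a line that stood apart from all the others, and Bmpr1b was not tested and reached 0.51 CPM in D4M. Tgfbr1 (ALK5, chr4:47353222-47414931) was higher in RET (69 ± 3.9), WT31 (62 ± 3.3) and B16F10 luc2 (46.3 ± 5.5) than in D4M (37.0 ± 5.2) and HCmel12 (35.1 ± 3.1). Its smallest difference was that of B16F10 luc2 from D4M (log2 fold change 0.33 ± 0.09, limma adjusted p = 0.0014). Of the co-receptors, Eng lay between 255 CPM in HCmel12 and 401 in B16F10 luc2 and Tgfbr3 between 3.12 in B16F10 luc2 and 14.3 in WT31.

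**Figure D3:**
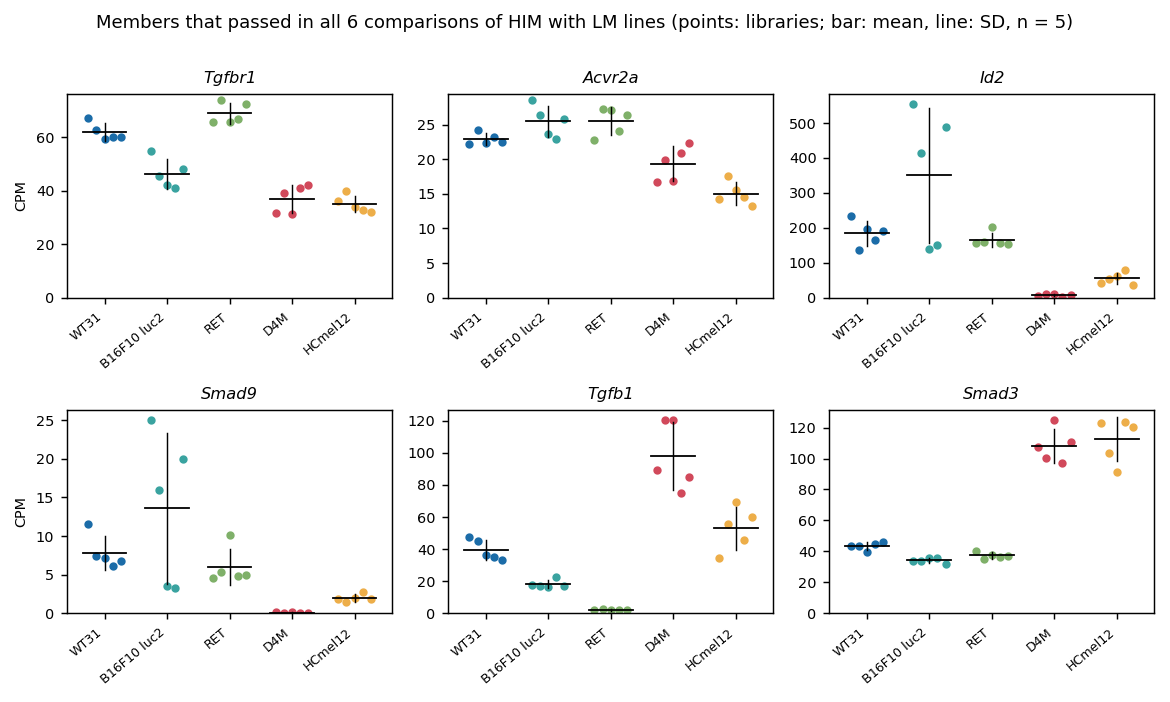
CPM in each library of the 6 genes that passed in all 6 comparisons of a HIM line (WT31, B16F10 luc2, RET) with a LM line (D4M, HCmel12), with the mean and SD of 5 libraries. Tgfbr1, Acvr2a, Id2 and Smad9 are higher and Tgfb1 and Smad3 lower in HIM-melanoma, and B16F10 luc2 shows the widest spread in Id2 and Smad9.

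Of the tested genes, 6 were commonly regulated, that is all 6 comparisons between HIM and LM lines passed with one direction. Tgfbr1, Acvr2a, Id2 and Smad9 were higher in HIM-melanoma, which is 4 of 45 (8.89%) beside 6.53% of all tested genes. Tgfb1 and Smad3 were lower, which is 2 of 45 (4.44%) beside 6.4% of all tested genes. Both shares lie near the background, so that the count itself sets these 45 genes apart in neither direction. Smad3, the SMAD of TGF-beta and activin signals, was the clearest of the 6. It had 107, 101, 125, 97.2 and 111 CPM in D4M and 123, 104, 91.6, 123 and 120 in HCmel12, and no library of a HIM line exceeded 46 CPM. Its smallest difference was that of WT31 from D4M (log2 fold change -1.31 ± 0.08, limma adjusted p = 2.7e-14). The related Smad2 did not follow it and was highest in WT31 (93.9 ± 3.4) and lowest in B16F10 luc2 (46.8 ± 1.1). With the 5 lines as units instead of libraries, no member passed with limma, and 4 of 45 (8.89%) had an unadjusted p under 0.05 (Id2, Smad9, Smad3 and Smad6), beside 7.48% of all tested genes, of which 0 passed after adjustment and 1140 before.

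Of the SMADs of the BMP branch, Smad1 and Smad5 were found in all lines and Smad9 was nearly absent from D4M. Smad1 lay between 12.2 CPM in B16F10 luc2 and 29.6 in WT31 and Smad5 between 82.9 in B16F10 luc2 and 144 in WT31. Smad4, the common SMAD, had the narrowest range of the SMADs, from 59.1 in B16F10 luc2 to 85.9 in D4M. Smad9 had 0.18, 0.09, 0.18, 0.04 and 0.04 CPM in D4M and 1.85, 1.43, 1.95, 2.75 and 1.91 in HCmel12, the next line. The fold of HCmel12 over D4M was 18.5 (95% Poisson interval 10.6 to 35.9 for the 12 counts of D4M, log2 fold change of D4M -4.10 ± 1.24, limma adjusted p = 0.0045). WT31 had 7.81 ± 2.1 CPM, B16F10 luc2 13.6 ± 9.8 and RET 5.95 ± 2.3. In RET against HCmel12, the smallest of the HIM against LM differences, the log2 fold change was 1.54 ± 0.61 (limma adjusted p = 0.028), and the call was lost without RET replicate 3 (0.068) or without HCmel12 replicate 2 (0.059).

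The inhibitory SMADs differed from each other in their order. Smad6 was highest in B16F10 luc2 (9.85 ± 8.2 CPM) and WT31 (7.62 ± 2.4), followed by RET (5.03 ± 2.0), HCmel12 (2.73 ± 0.32) and D4M (1.52 ± 0.54). No neighbours in this order were called (limma adjusted p of at least 0.19), with the spread estimated over all lines and not from each pair. WT31 and B16F10 luc2 were each higher than D4M and HCmel12 (limma adjusted p of at most 0.023). RET was higher than D4M (limma adjusted p = 0.018) and was not called against HCmel12. Smad7 was highest in WT31 (24.2 ± 4.4) and D4M (18.5 ± 1.7), followed by B16F10 luc2 (12.0 ± 5.2), RET (7.55 ± 1.9) and HCmel12 (4.14 ± 0.76). The difference of WT31 from D4M was not called with all libraries (log2 fold change 0.37, limma adjusted p = 0.051). Without the 3 libraries of B16F10 luc2 and RET described below, it was called at the same fold change (limma adjusted p = 0.021).

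The ID genes encode helix-loop-helix proteins that bind other transcription factors and are targets of BMP signals. Id2 was the ID gene with the highest TPM in the HIM lines, and its mean was 350 ± 193 CPM in B16F10 luc2, 184 ± 36 in WT31 and 166 ± 20 in RET. Id2 had 42.5, 53.3, 61.3, 79.2 and 37.1 CPM in HCmel12 and 5.33, 9.16, 9.17, 2.18 and 7.5 in D4M (log2 fold change of D4M from HCmel12 -3.14 ± 0.54, limma adjusted p = 9.5e-06). No library of a HIM line was below 137 CPM. Id1 and Id3 were not low in D4M. Id1 was 36.1 ± 12 CPM in D4M and 34.6 ± 8.2 in WT31, which did not differ beyond their spread, then 13.6 ± 10 in B16F10 luc2, 6.41 ± 4.0 in HCmel12 and 2.59 ± 2.9 in RET. Id3 was 164 ± 30 in WT31 and 134 ± 35 in D4M, then 69 ± 55 in B16F10 luc2, 51.3 ± 13 in HCmel12 and 22.5 ± 29 in RET. Id1 and Id3 of D4M thus did not differ from WT31 beyond their spread, whereas the mean levels of Id2, Smad6 and Smad9 were lowest in D4M. Id4 was found in WT31 (29.3 ± 8.0), D4M (12.7 ± 1.3) and HCmel12 (3.82 ± 0.85), with 2 counts in B16F10 luc2 and 1 in RET over all libraries.

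The feedback targets Skil, which encodes the SMAD corepressor SnoN, and Pmepa1, which encodes a membrane protein that binds SMAD2 and SMAD3, were not ordered alike. Skil was 42.7 ± 8.6 CPM in D4M and 33.7 ± 4.4 in WT31, which did not differ beyond their spread (limma adjusted p = 0.087), and 11 to 17.9 in the other lines. Pmepa1 had 264, 144, 209, 156 and 223 CPM in WT31 and 33.9, 55.9, 35.5, 43.3 and 65.7 in D4M (log2 fold change 2.09 ± 0.20, limma adjusted p = 3.2e-10). All WT31 libraries were above those of the other lines.

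Latent TGF-beta binding proteins anchor latent TGF-beta in the matrix. Ltbp1 had 342, 405, 306, 370 and 357 CPM in D4M and 112, 103, 81.6, 95.3 and 53.5 in WT31 (log2 fold change 2.04 ± 0.15, limma adjusted p = 2.6e-12), against 11.4 ± 3.9 in HCmel12, 1.73 ± 0.36 in B16F10 luc2 and 1.69 ± 1.1 in RET. Ltbp2 was found mainly in D4M (2.81 to 5.91 CPM), 34.1-fold above RET (95% Poisson interval 21 to 59.7). Ltbp3 was highest in WT31 (254 ± 19) and D4M (206 ± 36) and lowest in B16F10 luc2 (77.6 ± 2.8), and Ltbp4 was lowest in RET (12.3 ± 1.1). RET was thus the lowest line in the ligand Tgfb1, the receptor Tgfbr2 and Ltbp4, while it had the highest mean of Tgfbr1.

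Each line was then compared with all the others. D4M was higher than all of them in 13 of 45 genes (28.9%) beside 20% of all tested genes, and WT31 in 9 (20%) beside 13.8%. HCmel12 was highest in 5 beside 9.56%, B16F10 luc2 in 2 beside 8.81% and RET in 2 beside 7.07%. B16F10 luc2 and HCmel12 were each lowest in 5 beside 6.83% and 6.85%, RET in 4 beside 5.06% and D4M in 3 beside 15.7%. WT31 was lowest in none of the 45 beside 11.1% of all tested genes. Among 53 tested other pathway genes, described below, WT31 was highest in 2 (3.77%) and lowest in 7 (13.2%). The 13 genes of D4M were Tgfb1, Tgfb3, Acvr1, Bmpr1a, Inhba, Inhbb, Bmp2, Bmp6, Smad4, Grem1, Chrdl1, Ltbp1 and Ltbp2, and the 9 of WT31 were Tgfbr3, Bmp7, Smad2, Smad5, Fst, Bambi, Ltbp3, Id4 and Pmepa1. Genes such as Inhbb, Bmp6 and Grem1 entered the test through the line in which they were found and had to differ from the others, so these counts describe the lines and are no evidence for the pathway as a whole.

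The pairs of lines were then compared one by one. Between D4M and the HIM lines, 35 of the 45 members passed against WT31 (beside 76.1% of all tested genes), 41 against B16F10 luc2 (77.7%) and 42 against RET (77.1%). Between HCmel12 and the HIM lines, 38 passed against WT31 (beside 70.4% of all tested genes), 29 against B16F10 luc2 (69.1%) and 35 against RET (67.2%). D4M and HCmel12 differed in 34 members (beside 72.5% of all tested genes). Within HIM-melanoma, WT31 differed from B16F10 luc2 in 36 members (beside 72.8% of all tested genes) and from RET in 34 (73.2%), and B16F10 luc2 and RET differed in 18 of the 45 members (40% beside 51.5%). WT31 was the higher line in 30 of the 36 members against B16F10 luc2 and in 29 of the 34 against RET, whereas about as many of all tested genes were higher as lower in WT31 (5555 and 5550 against B16F10 luc2, 5614 and 5550 against RET). The median log2 difference of the members was 0.81 in both comparisons and -0.0012 and -0.0017 over all tested genes. Over the 33 members with more than 30 counts in both lines, the medians were 0.79 and 0.81. The members that were lower in WT31 than in both were Tgfb3, Eng, Nog and Fstl3. These comparisons share the WT31 libraries. Of the 53 other pathway genes, 22 were higher and 15 lower in WT31 than in B16F10 luc2 (median log2 difference 0.09). Against RET, 25 were higher and 15 lower (0.16). Members also had a main direction in other pairs. WT31 was higher than HCmel12 in 30 members and lower in 8, but higher than D4M in 19 and lower in 16. B16F10 luc2 was higher than D4M in 9 and lower in 32, and RET in 11 and 31.

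Within single lines, several BMP targets varied more between libraries than nearly all other genes. In B16F10 luc2, Id3 had 132, 87.3, 8.12, 13.7 and 104 CPM in replicates 1 to 5. Id1 had 26.3, 16.3, 3.17, 3.43 and 18.7, Id2 had 555, 413, 140, 151 and 490, Smad6 had 21.3, 9.08, 2.52, 2.1 and 14.2 and Smad9 had 25, 15.9, 3.55, 3.34 and 20. Replicates 3 and 4 were below the other libraries in each of these 5 genes. Smad7 (19.4, 10.3, 6.84, 8.29 and 15.4) and Skil (21.5, 9.99, 6.23, 7.35 and 14.5) were also lowest in replicates 3 and 4. The lowest library still held 197 counts of Id3 and 51 of Smad6.

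The ratio of the highest to the lowest library was 16.2 for Id3, 10.1 for Smad6, 8.29 for Id1, 7.49 for Smad9, 3.95 for Id2, 3.46 for Skil and 2.83 for Smad7. Among the 9909 tested genes with a mean of at least 5 CPM in B16F10 luc2, the median ratio was 1.18 and the 99th percentile 1.99. Id3, Smad6, Id1 and Smad9 ranked at the places 3, 4, 5 and 6, after 2 predicted genes (Gm28037 and Gm14440), and Id2, Skil and Smad7 at the places 12, 15 and 18. The first 20 places also held genes outside the listed pathway genes, among them Atoh8 (ratio 6.03), Egr1 (4.72), Nr4a3 (4.06), B3galt5 (3.23), Etv4 (3.05) and Malat1 (2.77). Col1a1 (2.81), one of the other pathway genes, was among them too. A receptor and the pseudoreceptor did not vary in this way. Tgfbr2 had 54.2, 68.8, 65.2, 66.9 and 62.4 CPM and Bambi 12.5, 10.7, 12.3, 11.6 and 11 in the same libraries.

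In RET, replicate 3 was the library that stood apart. Id3 had 7.27, 12, 73.7, 6.97 and 12.3 CPM, a ratio of 10.6 that was reached by 4 of 9961 genes, Id3 included. Id1 had 0.95, 1.49, 7.8, 1.16 and 1.54 CPM, Smad9 had 4.55, 5.39, 10.1, 4.84 and 4.9, and Smad6 had 4.63, 5.57, 8.16, 3.16 and 3.63. Replicate 3 was highest in each of these genes, as in Nog and Pmepa1. Outside the 49 genes, the TGF-beta responsive genes Thbs1 (ratio 7.40), Col1a1 (7.93) and Ccn2 (3.81) were also among the 20 genes with the largest ratios in RET. Each of them was highest in replicate 3, and Col1a1 had 81 CPM in replicate 3 against 10.2 to 35.7 in the others. The same 20 genes also included Lims2 (ratio 10.2), Col8a1 (8.09), Spp1 (7.88), Bcan (7.04) and Slc7a11 (5.18), which are not among the listed pathway genes. In HCmel12, Id1 was highest in replicate 3 with 13.3 CPM against 2.97 to 5.49 in the others. In D4M, Id2 varied 4.21-fold. What differed between these cultures was not recorded in the labels and was not tested.

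**Figure D4:**
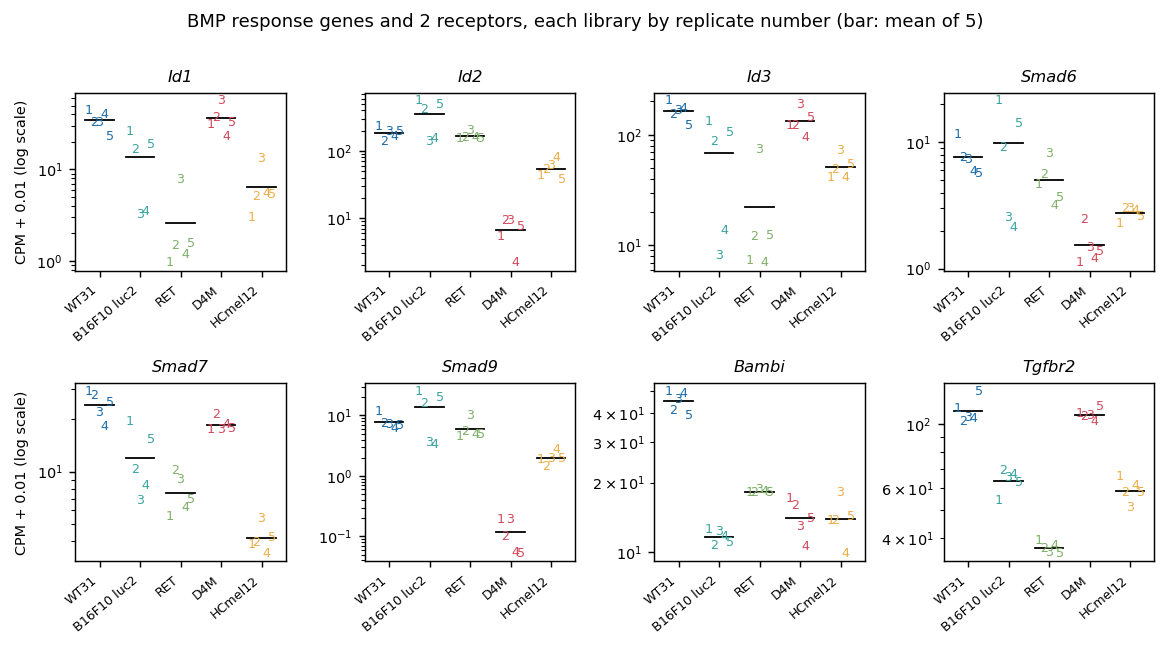
CPM on a log axis of Id1, Id2, Id3, Smad6, Smad7, Smad9 and, for comparison, Bambi and Tgfbr2, with each library drawn as its replicate number and the line mean as a bar. In B16F10 luc2 the numbers 3 and 4 lie below the others in the ID and SMAD genes, in RET the number 3 lies above the others in Id1, Id3, Smad6 and Smad9, and Bambi and Tgfbr2 show no such split.

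**Figure D5:**
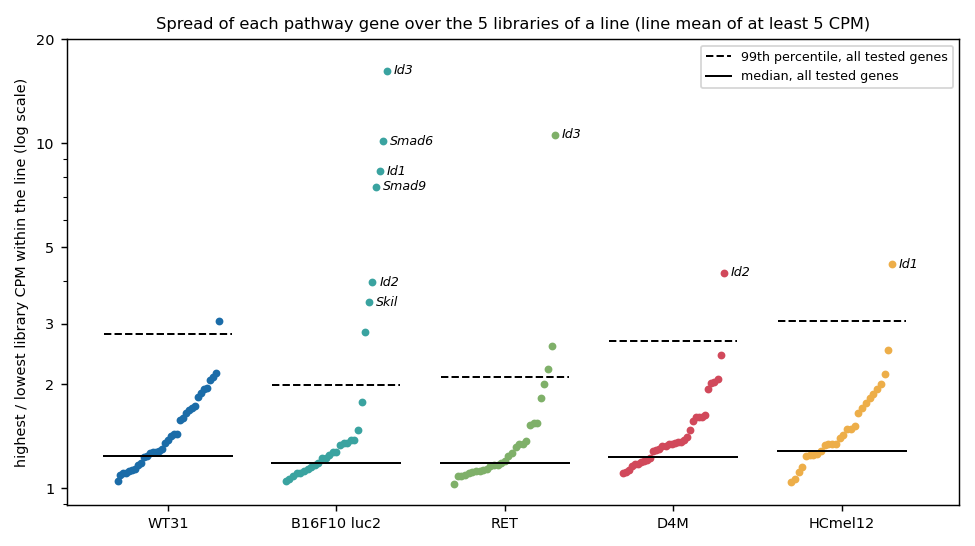
Ratio of the highest to the lowest library within each line on a log axis, for every one of the 49 genes with a line mean of at least 5 CPM (points), beside the median (solid) and the 99th percentile (dashed) of all tested genes of that line. Id3, Smad6, Id1, Smad9, Id2, Skil and Smad7 in B16F10 luc2 lie above its dashed line at 1.99 and Id3, Smad6 and Smad9 in RET above 2.10, as do Id2 in D4M, Id1 in HCmel12 and Ltbp4 in WT31 in their lines.

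The comparisons between lines were repeated without B16F10 luc2 replicates 3 and 4 and RET replicate 3, a choice made after their values were seen. The 6 commonly regulated genes were called again. The levels of B16F10 luc2 changed the most. Its log2 fold change from D4M was -1.62 in Id3 with all libraries and -0.29 without the 3 libraries, where it was no longer called. In Smad6 and Smad9, the difference of WT31 from B16F10 luc2 was 0.09 and -0.40 with all libraries, neither called, and -0.94 and -1.40 without them, both called. Smad6 and Smad9 of RET against WT31 and against B16F10 luc2, and Smad6 of D4M against HCmel12, were also called only without them. The same held for Id1 and Id3 of B16F10 luc2 against HCmel12, with 1.83 and 1.09 against 0.80 and -0.24 with all libraries. The call of Smad7 in B16F10 luc2 against D4M was lost (-0.71 with all libraries and -0.33 without them), as was that of Skil in B16F10 luc2 against HCmel12 (-0.70 and -0.25), and Smad7 became highest in WT31. Nog of B16F10 luc2 against RET was -0.20 with all libraries and 1.68 without them, where it was called. In RET, Id1 against HCmel12 was called only without them (-1.63 and -2.14). Since the libraries were picked on these genes, these values are no independent test.

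Beside the 49 genes, 75 other genes of the pathway were listed, and 53 of them were tested. In all, 3 were commonly higher in HIM-melanoma (Tgif2, Zfyve9 and Tagln), which is 5.66% beside 6.53% of all tested genes. Another 9 were commonly lower (Lefty1, Neo1, Nbl1, Itgb5, Smurf1, Tgif1, Fkbp1a, Fn1 and Snai1), which is 17% beside 6.4%. Since the list was chosen with earlier results of these data known, the larger share is a description and no test. Fn1, which encodes fibronectin, had 2130 ± 310 CPM in D4M and 1390 ± 300 in HCmel12 and 80.7 to 264 in the HIM lines. Snai1, a repressor known for its part in epithelial to mesenchymal transition, had 19.3 ± 4.2 CPM in D4M and 0.97 ± 0.28 in HCmel12 and at most 0.14 on average in the HIM lines. D4M was higher than all other lines in 29 of the 53 genes (54.7%), beside 20% of all tested genes. Genes such as Bmper and Fbn1 were found almost only in D4M and had to differ from the other lines. This count therefore describes D4M and is no evidence for the pathway as a whole.

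Several of these genes act on latent TGF-beta or are matrix targets. The matrix proteoglycan biglycan (Bgn) had 1760 ± 110 CPM in D4M and at most 1.48 on average in the other lines. Fbn1 (52.0 ± 8.1) and Fbn2 (121 ± 28), which encode fibrillins, Thbs1 (540 ± 140), Furin (314 ± 32), Tgfbi (318 ± 71), Col1a1 (144 ± 37) and Col1a2 (354 ± 61) were also highest in D4M, as were Bmper, Lefty1, Tgif1 and Snai1. Nrros, which tethers latent TGF-beta on the cell surface, was highest in HCmel12 (61.5 ± 6.9 CPM), where Ccn2, Cdkn1a and Lrrc32 were lowest. WT31 had the lowest level of the integrin gene Itgb5 (2.10 ± 1.1 CPM), and B16F10 luc2 had the lowest levels of Gdf15, Itgb8 and Thbs1. Tgif2 was lowest in D4M (11 ± 1.0 CPM, against 61.9 to 83.1 in the other lines), so that Tgif1 and Tgif2, which encode related corepressors of SMADs, were opposite in D4M.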

How the data were processed

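RNA was measured in 25 libraries of 5 melanoma lines. According to the methods, the authors trimmed reads with trim_galore (Trim Galore 0.6.4) and assigned them to GRCm38.p6 with kallisto, and they deposited estimated counts per gene without normalization. The authors also deposited TPM per gene, scaled by transcript length, for 24 libraries used here. The annotation release and the step from transcripts to genes are not given in the sources used here. Levels of different pathway genes were ranked by TPM, whereas CPM were used between lines.

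Genes were filtered with filterByExpr (edgeR 4.0.16), scaled by TMM, weighted by voom and fitted with limma (3.58.1, R 4.3.3) with a mean per line over all 25 libraries. The 10 pairs of lines were tested with Benjamini-Hochberg adjustment over 15247 genes at 0.05, in both directions. CPM are counts divided by the TMM-scaled sum of the tested genes. A gene was called commonly regulated where all 6 HIM against LM comparisons passed with one sign, and highest or lowest in a line where its 4 comparisons passed. Values per library are given for genes that follow such a rule if even the weakest of these comparisons reached 2 on the log2 scale in size, as well as, chosen after their values were seen, for Smad3 and the genes that varied within a line, and the TGF-beta ligands, type II receptors, inhibitory SMADs and ID genes are always named. Folds against a line with up to 30 counts are ratios with 95% exact Poisson intervals or, at 0 counts, bounds against 3 counts over the line. They cover counting error only. P-values measure the spread between cultures of a line. The members and the lists were chosen with earlier results of these data known. Sequences came from RefSeq tables and gene coordinates from GENCODE M21. The fitting steps were tested on simulated data. DESeq2 1.42.0, edgeR and other filters, scalings and library choices were tried as alternatives. One allele of the D4M mice and one of the other pathway genes named by the rule are not reported here.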

Additional observations from a re-analysis of the deposited data

Results flagged for a closer look

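In each line with a mean of at least 5 CPM, the highest or lowest of the 5 libraries of a pathway gene was marked where its gap to the nearest other library exceeded 0.71 of the whole range (Dixon's 95% value for 5 libraries). Of 155 groups of 5 libraries, 16 were marked (10.3%), beside 6.19% of the 50205 groups of all tested genes, while chance marks about 1 in 20 groups. RET held 8 of them in 29 groups (27.6%), beside 5.82% of all tested genes in RET. RET replicate 3 accounted for 6 (20.7%), beside 1.53% of all tested genes. Its Id3 was 73.7 CPM (6.97 to 12.3 in the others), its Id2 202 CPM (154 to 161), its Smad9 10.1 CPM (4.55 to 5.39), its Pmepa1 37.8 CPM (18.8 to 22.5) and its Tgfb3 24.5 CPM (18.3 to 19.6), and its Gdf11 was the lowest with 20.2 CPM (28.2 to 31.3). RET also held a low Smad1 in replicate 5 (14.8 CPM, the others 16.5 to 16.7) and a high Fstl3 in replicate 4 (14.7 CPM, the others 12.7 to 13).

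WT31 replicate 1 was high in Tgfbr3 (20.9 CPM, the others 12.1 to 13.5), Bmp2 (18.9 CPM, the others 12.0 to 12.7) and Smad9 (11.5 CPM, the others 6.12 to 7.44). HCmel12 replicate 3 was high in Id1 (13.3 CPM, the others 2.97 to 5.49), and HCmel12 replicate 5 in Ltbp3 (218 CPM, the others 162 to 177). D4M replicate 3 was high in Ltbp3 (271 CPM, the others 183 to 194) and D4M replicate 5 in Id4 (14.9 CPM, the others 11.6 to 12.5). B16F10 luc2 replicate 4 was high in Tgfb1 (22.8 CPM, the others 16.5 to 17.9). The low ID genes of B16F10 luc2 were not marked, since replicates 3 and 4 were low together.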

How the results depend on the processing

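Apart from the values given here, all counts of members stayed within 1.5 times of those reported, and none of the 22 weakest comparisons of named members changed its direction, while 20 of their values in other settings lost the call. Of the 6 commonly regulated members, 3 remained where a change of at least 1 on the log2 scale was required (Id2, Smad9 and Smad3), 3 at an adjusted p under 0.01 (Tgfbr1, Id2 and Smad3) and 0 with line means as units (limma, where 4 members and 1140 of all tested genes had an unadjusted p under 0.05). The shares of all tested genes were 4.13% and 10.2% for the first and the second of these rules. With a change of at least 1 required, 17 members were highest (37.8% beside 22.5% of all tested genes) and 8 lowest in one line (17.8% beside 14.9%). Against D4M, 23 members then passed for WT31 (51.1% beside 36.7%). Against HCmel12, 19 passed for WT31 (42.2% beside 30%), 18 for B16F10 luc2 (40% beside 28.1%) and 18 for RET (40% beside 26.6%). WT31 differed from B16F10 luc2 in 23 (51.1% beside 31.4%) and from RET in 21 (46.7% beside 31.2%), B16F10 luc2 from RET in 7 (15.6% beside 14.3%), shares that include members found mainly in one line, which had to differ. Under the same rule, 7 of the 53 tested other pathway genes were commonly regulated, beside 4.13% of all tested genes, which is a description and no test. With at least 10 counts in every library, 31 members were tested, of which 18 were highest in one line (58.1% beside 56.5%), 23 passed in WT31 against D4M (74.2% beside 76.7%) and 21 in D4M against HCmel12 (67.7% beside 72.7%). Leaving out each library in turn gave 5 to 6 commonly regulated members. Tgfb1 was lost without WT31 replicate 4 or 5 or HCmel12 replicate 3 or 5, and also with no filter (adjusted p = 0.05). Replicate numbers did not pair the libraries, with deviations of same-numbered libraries correlating over 0.1 in 4 of 50 pairs and 7 of 25 libraries closest to their own number. With a replicate block, 6 members were commonly regulated. Without TMM scaling, the median of all genes shifted by up to 0.22 on the log2 scale between WT31 and D4M, and 62.6% of the commonly regulated genes were higher in HIM-melanoma, compared with 50.5% with TMM and 68.9% with log2(TPM + 1). The 6 common members kept their directions, although Tgfb1 was not called with TPM. Smad9 in D4M against HCmel12 was not called with log2(TPM + 1) (adjusted p = 0.11).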
